A study of Mus musculus with 36 samples.

Results

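Genes of B cells and of lymphoid follicles were followed in 36 mouse breast tumors. The 8 members were chosen by name with earlier results of these data known. All were on the array: *Ms4a1*, *Cd79a*, *Cd79b*, *Spib*, *Pou2af1*, *Cxcl13*, *Ltb* and *Lta*. They were read by 10 of the 22690 probe sets, with a second probe set for *Ms4a1* and for *Cxcl13*, and made up 8 of the 12394 genes tested. The study asked how depletion of BPTF, a subunit of the chromatin remodeler NURF, in cancer cells affects tumors and the immune response to them. Cells of the BALB/c-derived breast cancer lines 67NR (100000 cells) or 66cl4 (10000 cells) were grown as mammary tumors in females of 6 to 8 weeks of age, either BALB/c mice, which have a full immune system, or NSG mice (NOD/SCID/Ifrg2r -/- in the labels), which lack mature T, B and NK cells. In each combination of line and host there were 3 Control tumors, whose cells carried a retroviral control shRNA, and 6 BPTF KD tumors, whose cells carried a retroviral Bptf shRNA. 67NR tumors were taken at day 21 and 66cl4 tumors at day 28, so that line, cell number and day cannot be told apart. The study used 2 Bptf shRNAs, and which of them a tumor carried was not used here. The p values measure the spread between tumors and not between independently made knockdown lines.

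A follicle is a cluster of B cells in a lymph node, or in inflamed tissue, held together by stromal cells. Lymphotoxin alpha (*Lta*) and lymphotoxin beta (*Ltb*), made by lymphocytes, form a complex on the lymphocyte surface that signals through the lymphotoxin beta receptor on stromal cells. Stromal and myeloid cells in turn make the chemokine *Cxcl13*, which draws in cells that carry its receptor, *Cxcr5*, chiefly B cells. *Ms4a1* encodes the B cell surface protein CD20. *Cd79a* and *Cd79b* encode the signalling chains of the B cell receptor. *Spib* is a transcription factor of the ETS family in B cells and plasmacytoid dendritic cells, and *Pou2af1* is a coactivator of octamer-binding factors in B cells.

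Promoters of 6 members, the 250 bases before the annotated start, were read from RefSeq (mouse GRCm38.p6). The following 5 are shown because they hold an octamer, ETS or kappaB motif or, for *Cxcl13*, a TATA box near the start. Capitals mark the motif, each sequence is written 5′ to 3′ on the strand of the gene, and the motifs were chosen after the sequences had been seen.
*Spib* chr7:44532072-44532321 (-): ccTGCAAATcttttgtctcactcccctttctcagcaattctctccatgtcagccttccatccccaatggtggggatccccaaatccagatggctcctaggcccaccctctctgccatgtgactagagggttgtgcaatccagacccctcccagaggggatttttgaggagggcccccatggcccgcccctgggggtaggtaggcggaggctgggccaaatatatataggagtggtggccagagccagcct
*Pou2af1* chr9:51213440-51213689 (+): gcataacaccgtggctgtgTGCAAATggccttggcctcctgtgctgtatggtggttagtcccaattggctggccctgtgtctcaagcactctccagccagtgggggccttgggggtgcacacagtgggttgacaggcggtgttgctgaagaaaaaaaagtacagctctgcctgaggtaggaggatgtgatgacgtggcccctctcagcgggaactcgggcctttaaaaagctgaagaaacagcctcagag
*Cd79a* chr7:24897247-24897496 (+): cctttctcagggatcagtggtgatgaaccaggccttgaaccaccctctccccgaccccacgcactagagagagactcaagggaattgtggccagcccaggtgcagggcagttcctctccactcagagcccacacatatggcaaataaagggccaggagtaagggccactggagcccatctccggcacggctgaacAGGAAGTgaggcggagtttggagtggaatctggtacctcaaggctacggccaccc
*Ltb* chr17:35194257-35194506 (+): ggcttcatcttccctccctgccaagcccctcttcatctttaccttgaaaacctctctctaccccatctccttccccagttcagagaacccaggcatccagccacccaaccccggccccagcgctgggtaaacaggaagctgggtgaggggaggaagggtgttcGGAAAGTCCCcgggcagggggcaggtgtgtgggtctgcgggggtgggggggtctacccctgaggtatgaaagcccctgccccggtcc
*Cxcl13* chr5:95956689-95956938 (+): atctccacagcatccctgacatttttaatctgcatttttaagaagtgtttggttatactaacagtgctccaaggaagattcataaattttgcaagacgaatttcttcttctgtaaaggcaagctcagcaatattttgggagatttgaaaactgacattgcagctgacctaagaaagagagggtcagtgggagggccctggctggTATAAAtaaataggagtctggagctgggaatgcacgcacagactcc
The capitals in *Spib* and *Pou2af1* are the octamer core TGCAAAT, which begins at positions -248 and -231 from the start of the gene. Both strands of all promoters were searched, and 3.56% of 32851 promoters of the same length held it. In *Ltb*, the capitals are a kappaB motif, shown as it reads on the strand of the gene, at positions -87 to -78, and 0.14% of promoters held it on either strand. In *Cxcl13*, they are a TATAAA that begins at position -46, which 12.4% of promoters held. Of the other motifs searched, AGGAAGT (ETS, in capitals) was in the promoter of *Cd79a* at positions -55 to -49 and in 7.69% of promoters, TATAAA was also in that of *Lta*, and the palindromic EBF1 motif was in none of the 6 and in 0.779% of promoters. A match of letters is a description and not a binding site. *Ltb* and *Lta* lie side by side on chromosome 17 with *Tnf* between them, and the other members are on 4 other chromosomes and on chromosome 7, which holds both *Cd79a* and *Spib*.

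The values are log2 array values normalized by the authors, the number of arrays limits their precision, and levels are compared only within 1 probe set. Median values per array ran from 7.03 to 7.21. *Bptf*, the targeted gene, was below every control in 6 of 6 66cl4 BPTF KD tumors in BALB/c mice, in 5 of 6 in NSG mice, in 3 of 6 67NR BPTF KD tumors in NSG mice and in 1 of 6 in BALB/c mice, where 2 lay above. BPTF KD is therefore used below as the label of a tumor. Of the 67NR BALB/c BPTF KD tumors, replicate 3 stood apart in skeletal muscle markers (list mean 11.50, against 5.68 to 7.43 in the other 5) and replicate 6 had the highest mean of plasma cell and immunoglobulin genes (8.21, with the others at 6.88 to 7.91). Replicates 3 and 6 held the highest values of most members, and values without both are given beside those with all 6 where they differ most. A lower share of a cell type and less RNA per cell of that type cannot be told apart in RNA of a whole tumor.

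**Figure D1:**
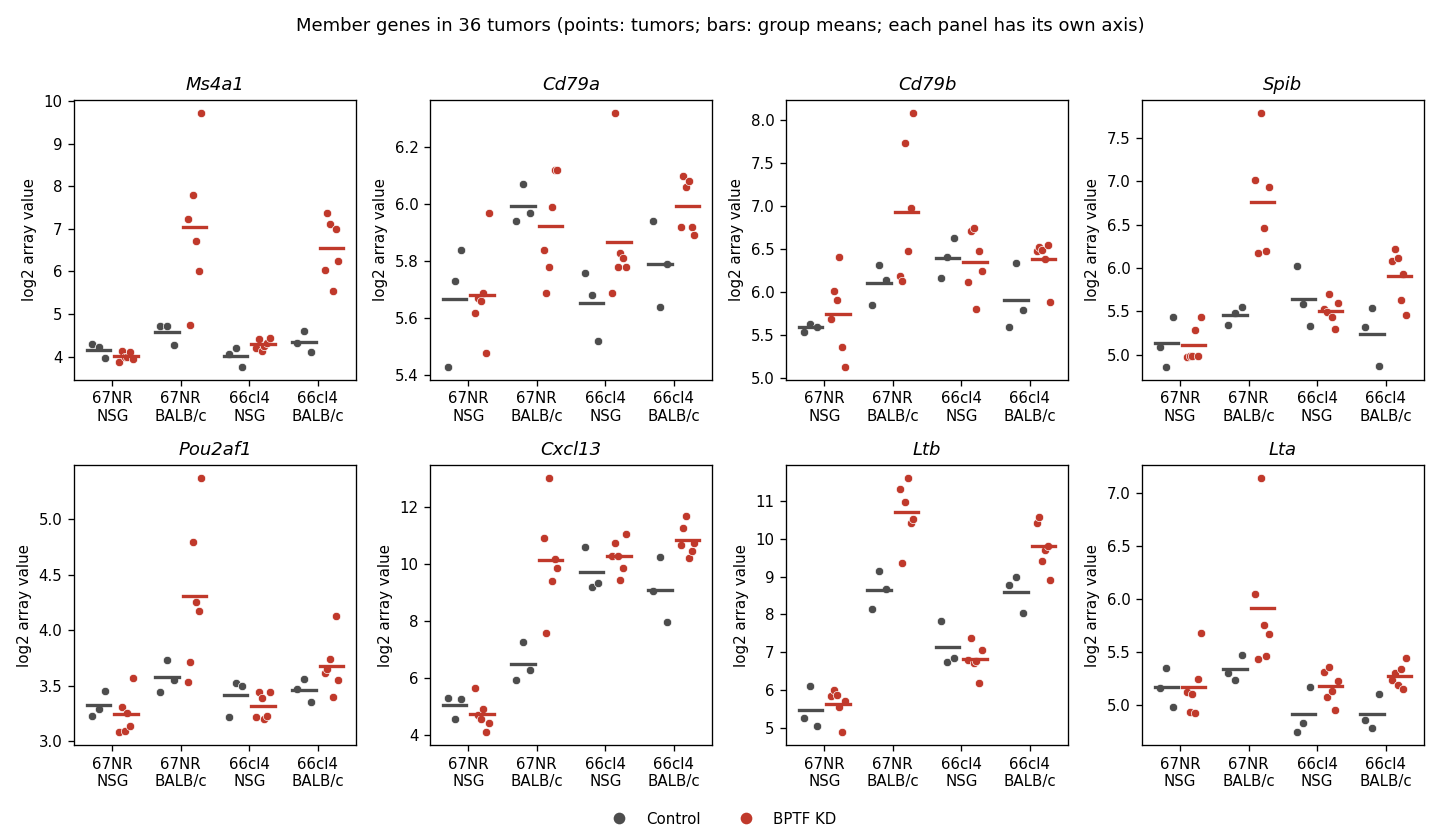
Log2 array value of each member (brightest probe set; one panel per gene, each with its own axis) in 36 tumors by cell line and host; points are tumors, bars are group means, grey is Control (3 tumors) and red is labelled BPTF KD (6 tumors). *Ms4a1* was between 3.76 and 4.43 in all NSG tumors and reached 9.73 in BALB/c BPTF KD tumors, while *Cd79a* stayed between 5.43 and 6.32 throughout.

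In NSG mice the B cell genes gave the level that these probe sets read where mature B cells are lacking. *Ms4a1* lay between 3.88 and 4.29 in the 9 67NR tumors and between 3.76 and 4.43 in the 9 66cl4 tumors. *Pou2af1* lay between 3.08 and 3.57 and between 3.20 and 3.52. *Cd79a* ran from 5.43 to 5.97 and from 5.52 to 6.32, and *Cd79b* from 5.13 to 6.41 and from 5.80 to 6.74. BALB/c controls were close to these levels for *Ms4a1* (4.73, 4.73 and 4.28 in 67NR, 4.33, 4.59 and 4.11 in 66cl4) and for *Pou2af1* (3.44, 3.73 and 3.55, and 3.47, 3.56 and 3.35). A low value here may be background of the probe set, so that a fold from it is uncertain.

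*Ms4a1* rose with the BPTF KD label in 66cl4 tumors of BALB/c mice. The 6 BPTF KD tumors ran from 5.54 to 7.38 with a median of 6.62, all above the highest control (log2 difference 2.21 ± 0.36 SE, exact permutation p = 0.0119, limma adjusted p = 0.0493). In this comparison 0.113% of all genes rose. The exact p is the smallest that 84 splits of 9 tumors allow. The call held in 2 of 9 other settings. When tumors were left out one at a time, the call held in 3 of 9 fits and the difference stayed between 2.05 and 2.41. It was lost without Control replicates 2 or 3 and without BPTF KD replicates 1, 2, 3 or 5 (adjusted p from 0.0584 to 0.181). Without Control replicate 1, the genes that rose numbered 1014 instead of 14, and the members 2 instead of 1. On the second probe set of *Ms4a1*, which read 3.14, 3.19 and 3.05 in controls and 3.46 to 4.57 in BPTF KD tumors, the difference was 0.86 ± 0.21 SE, and all 6 tumors were again above every control (limma adjusted p = 0.0706).

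In 67NR tumors of BALB/c mice, *Ms4a1* differed as much on average but far more between tumors. The 6 tumors labelled BPTF KD had a lowest value of 4.74, a median of 6.97 and a highest value of 9.73. All lay above the controls, although replicate 2 did so by no more than the last decimal of the table (log2 difference 2.46 ± 0.88 SE, exact permutation p = 0.0476, limma adjusted p = 0.609). No gene passed in this comparison by limma (0.0% of 12394), and 961 had an unadjusted p under 0.05. The difference was 1.60 ± 0.54 without replicates 3 and 6 (adjusted p = 0.445), an alternative chosen after seeing the data. The second probe set gave 1.21 ± 0.84, with 7.51 in replicate 6 and 3.06 to 4.50 in the other 5.

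The receptor chains differed less than *Ms4a1* and passed in neither line. *Cd79b* in 67NR controls was at 5.85, 6.31 and 6.14, and the BPTF KD tumors ran from 6.13 to 8.08 with a median of 6.72, 4 of 6 above every control (log2 difference 0.83 ± 0.44 SE, limma adjusted p = 0.678). Without replicates 3 and 6 the difference was 0.34 ± 0.23. Its 66cl4 controls read 5.59, 6.33 and 5.79, and 5 of 6 BPTF KD tumors were higher, between 6.38 and 6.54, with the other at 5.88 (0.48 ± 0.18 SE, adjusted p = 0.139). All 6 lay inside the *Cd79b* range of 66cl4 NSG tumors, 5.80 to 6.74. In 66cl4, *Cd79b* differed between BALB/c and NSG mice by 0.03 ± 0.17 SE in BPTF KD and by -0.49 ± 0.24 SE in Control tumors. *Cd79a* was at 5.94, 6.07 and 5.97 in 67NR controls and between 5.69 and 6.12 in BPTF KD tumors, a difference of -0.07 ± 0.13, and at 5.94, 5.64 and 5.79 in 66cl4 controls and between 5.89 and 6.10 in BPTF KD tumors. The groups overlapped in both lines. Over all tumors its BALB/c values lay inside its range in NSG mice, whose highest value, 6.32, was that of 1 66cl4 tumor, with the next at 5.97. In 67NR Control tumors 3 of 3 BALB/c values lay above every NSG Control value, but the difference did not pass (0.33 ± 0.15 SE, limma adjusted p = 0.421). The exact permutation p was 0.1, the smallest that 20 splits allow, and the share of all genes without such overlap was not counted.

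Of the transcriptional regulators, *Spib* in 67NR controls was at 5.34, 5.48 and 5.55, and the BPTF KD tumors ran from 6.17 to 7.79 with a median of 6.70. All 6 were above every control (log2 difference 1.30 ± 0.33 SE, exact permutation p = 0.0238, limma adjusted p = 0.609), and the difference was 1.00 ± 0.22 without replicates 3 and 6. In 66cl4, controls at 5.32, 5.54 and 4.87 met BPTF KD tumors between 5.46 and 6.22, 5 of 6 of them higher (0.66 ± 0.19 SE, adjusted p = 0.0849). *Pou2af1*, whose values are among the lowest on the array, ran from 3.53 to 5.37 in 67NR BPTF KD tumors, 4 of 6 above every control (0.73 ± 0.37 SE), and its 2 highest values were those of replicates 6 (5.37) and 3 (4.79). Without these tumors the difference was 0.34 ± 0.20. In 66cl4 it ran from 3.40 to 4.13 (0.22 ± 0.14 SE).

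The follicle chemokine *Cxcl13* had the largest upward difference of means among all 12394 genes in 67NR tumors of BALB/c mice. Controls read 5.93, 7.27 and 6.28. Values under the BPTF KD label ran from 7.58 to 13.00 with a median of 10.01. All 6 lay above every control, with a 12.6-fold higher mean (SE of the log2 difference 0.95, exact permutation p = 0.0119, limma adjusted p = 0.609). Without replicates 3 and 6 the log2 difference was 3.02 ± 0.75 (adjusted p = 0.285), and the second probe set gave 2.85 ± 0.89. In 66cl4, controls at 9.06, 10.25 and 7.96 met BPTF KD tumors between 10.21 and 11.67 with a median of 10.70, of which 5 of 6 were above every control (1.74 ± 0.44 SE, exact permutation p = 0.0238, limma adjusted p = 0.0744). Leaving out 1 tumor moved this difference between 1.18 and 2.32. The lower value was reached without Control replicate 3, and the call was made without Control replicate 1 (adjusted p = 0.0469).

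*Ltb* was measured in the controls of BALB/c mice well above NSG tumors and was higher again with the BPTF KD label. In 67NR, controls at 8.14, 9.14 and 8.68 met BPTF KD tumors from 9.36 to 11.60 with a median of 10.75, all 6 above every control (log2 difference 2.05 ± 0.45 SE, exact permutation p = 0.0119, limma adjusted p = 0.524). The difference was 2.02 ± 0.54 without replicates 3 and 6. In 66cl4, controls at 8.78, 8.99 and 8.03 met BPTF KD tumors from 8.92 to 10.58 with a median of 9.76, 5 of 6 above every control (2.31-fold, SE of the log2 difference 0.34, adjusted p = 0.0840). *Lta* differed less. Its 67NR controls were at 5.30, 5.23 and 5.47, and 4 of 6 BPTF KD tumors were higher, up to 7.14 in replicate 3 (0.58 ± 0.35 SE). The difference was 0.34 without replicate 3, and 0.34 ± 0.18 without replicates 3 and 6. In 66cl4 it read 4.86, 4.78 and 5.10 in controls and in BPTF KD tumors between 5.15 and 5.44, all above every control (0.36 ± 0.11 SE, exact permutation p = 0.0119, limma adjusted p = 0.0849).

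**Figure D2:**
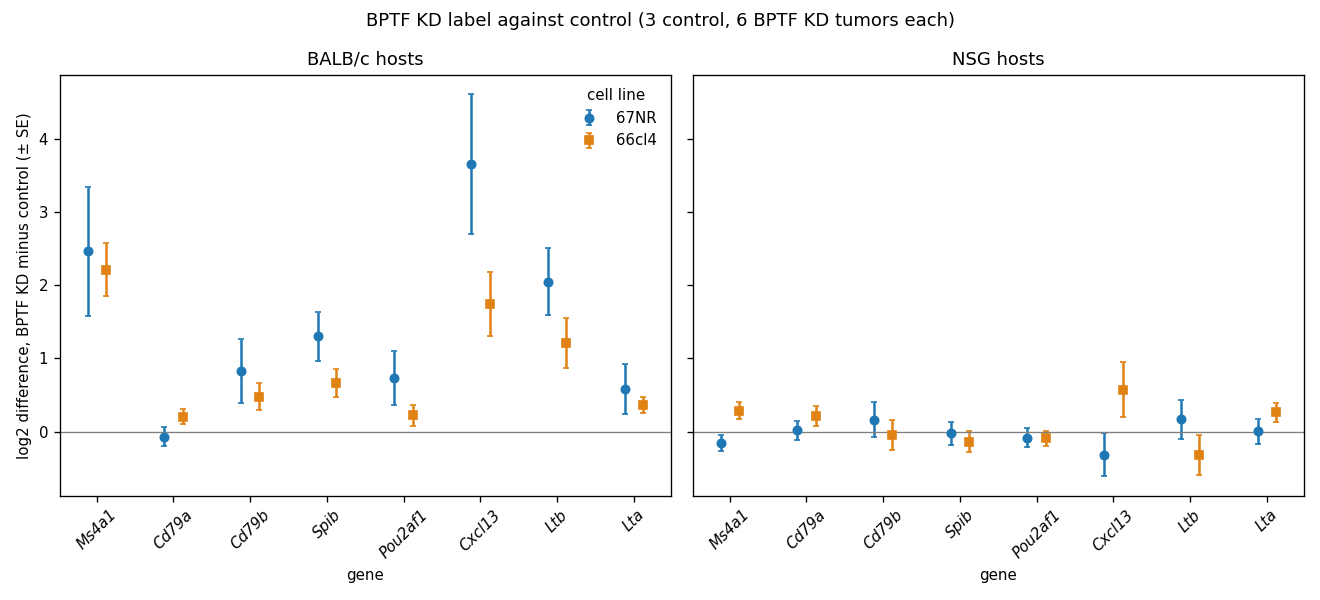
Log2 difference between BPTF KD and Control tumors (y axis, points ± SE of the limma fit) for each member (x axis) in BALB/c (left) and NSG hosts (right), 67NR as circles and 66cl4 as squares. In BALB/c mice every member except *Cd79a* in 67NR was above 0, and in NSG mice the differences lay between -0.32 and 0.57.

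The members were chosen with earlier results of these data known. The following counts therefore describe them and are not a test of the set. Counted together, 4 of 8 members lay wholly above the controls in 67NR tumors of BALB/c mice (*Ms4a1*, *Spib*, *Cxcl13* and *Ltb*), where 3.13% of all genes did so. The median difference of the members was 1.06 against -0.0033 for all genes. The same 4 members had an unadjusted p under 0.05, as did 4.37% of all genes in this direction. In 66cl4, 2 of 8 lay wholly above the controls (*Ms4a1* and *Lta*), where 3.78% of all genes did so, with a median of 0.57 against 0.03. There 6 of 8 had an unadjusted p under 0.05, as did 12.4% of all genes, and 1 of 8 passed the adjusted threshold. A fit of all 36 tumors, which shares the spread over the groups, called 4 of 8 members higher in 67NR (*Ms4a1*, *Spib*, *Cxcl13* and *Ltb*, adjusted p from 0.00135 to 0.00665). It called 3.23% of all genes higher there, and 0 of 8 members and 0.0% of all genes in 66cl4. The spread was unequal: the SD of *Ms4a1* was 1.69 in 67NR BPTF KD tumors of BALB/c mice and 0.095 in those of NSG mice. That of *Cxcl13* was 1.79 and 0.52. The p values of this fit may therefore be too small for 67NR tumors of BALB/c mice. A test of the difference of the BPTF KD effect between 67NR and 66cl4 passed for 0 of 8 members by limma (0.0% of all genes). The differences were 1.91 ± 1.12 for *Cxcl13*, 0.84 ± 0.61 for *Ltb* and 0.25 ± 1.01 for *Ms4a1*, higher in 67NR. Without 67NR replicates 3 and 6 they were 1.27, 0.82 and -0.61, so that the direction of *Ms4a1* turned.

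In NSG mice 0 of 8 members passed with the BPTF KD label in either line, where 0.589% of all genes rose in 67NR and 0.0% in 66cl4. The differences ran from -0.32 (*Cxcl13*) to 0.17 (*Ltb*) in 67NR, and from -0.32 (*Ltb*) to 0.57 (*Cxcl13*) in 66cl4. In 66cl4 1 of 8 members was higher with an unadjusted p under 0.05, as were 5.36% of all genes. It was *Ms4a1*, at 4.05, 4.21 and 3.76 in controls and 4.13 to 4.43 in BPTF KD tumors (0.29 ± 0.11 SE, limma adjusted p = 0.591). The BPTF KD effect on *Ms4a1* was larger in BALB/c than in NSG mice by 1.93 ± 0.41 in 66cl4 (limma adjusted p = 0.263) and by 2.62 ± 0.93 in 67NR (0.566). For *Cxcl13* it was larger by 3.97 ± 1.06 in 67NR (0.444), for *Ltb* by 1.88 ± 0.56 (0.474) and for *Spib* by 1.32 ± 0.38 (0.466). For *Lta* in 66cl4 it was larger by only 0.10 ± 0.16 (0.786), with 0.26 ± 0.12 in NSG and 0.36 ± 0.11 in BALB/c mice. Without replicates 3 and 6, the 67NR values were 1.76 for *Ms4a1*, 3.33 for *Cxcl13*, 1.85 for *Ltb* and 1.02 for *Spib*. These tests of the host difference passed for 0 of 8 members and 0.0% of all genes in both lines, while 4 of 8 members in 67NR (3.4% of all genes) and 3 of 8 in 66cl4 (*Ms4a1*, *Spib* and *Ltb*, 5.95% of all genes) had a larger effect in BALB/c mice at an unadjusted p under 0.05.

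Between hosts, *Ltb* was the member that rose in all 4 comparisons of BALB/c with NSG tumors. In Control tumors it was 9.02-fold higher in 67NR (log2 difference 3.17 ± 0.46 SE, limma adjusted p = 0.00344) and 2.75-fold in 66cl4 (1.46 ± 0.39, adjusted p = 0.0183), and no tumor of one host overlapped the other. It was 1 of 8 members called in each, where 0.315% and 10.0% of all genes rose. The 66cl4 call was lost without NSG Control replicate 2 or BALB/c Control replicate 2, by the methods' t-test and in a fit of all 36 tumors, and the 67NR call was lost by the methods' t-test. Among BPTF KD tumors *Ltb* was 33.2-fold higher in 67NR (5.05 ± 0.32, adjusted p = 4.69e-08) and 7.92-fold in 66cl4. *Lta*, the neighbouring gene, was at the same mean of 4.91 in 66cl4 Control tumors of both hosts.

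In 67NR tumors labelled BPTF KD, 7 of 8 members rose in BALB/c against NSG mice, where 11.3% of all genes did. The log2 difference was 5.42 ± 0.61 SE for *Cxcl13*, 3.04 ± 0.54 for *Ms4a1* (limma adjusted p = 0.000698) and 1.65 ± 0.22 for *Spib*. On the second probe sets it was 3.29 ± 0.56 for *Cxcl13* and 1.40 ± 0.51 for *Ms4a1* (adjusted p = 0.063). *Cd79b* (1.18 ± 0.31), *Pou2af1* (1.06 ± 0.23) and *Lta* (0.75 ± 0.23, adjusted p = 0.0267) rose less, and *Cd79a* was at 0.24 ± 0.10 (adjusted p = 0.109). Without replicates 3 and 6, 7 of 8 again rose, *Cxcl13* by 4.78 ± 0.50, *Ms4a1* by 2.17 ± 0.33, *Cd79b* by 0.69 ± 0.22 and *Pou2af1* by 0.68 ± 0.14. *Cd79b* and *Lta* did not pass by the methods' t-test, nor *Lta* with the RNA integrity covariate, and with 1 tumor left out *Lta* passed in 9 of 12 fits. In 66cl4 tumors labelled BPTF KD, 3 of 8 members rose, where 6.34% of all genes did: *Ltb*, *Ms4a1* (2.26 ± 0.24, 6 of 6 tumors above every NSG tumor) and *Pou2af1* (0.36 ± 0.10, adjusted p = 0.0317). The call of *Pou2af1* was lost in a fit of all 36 tumors, by the methods' t-test and after subtraction of array medians. *Cxcl13* was at 0.57 ± 0.36 there, and at -0.61 ± 0.52 in 66cl4 Control tumors. Skeletal muscle markers, a sign of host tissue in the sample, also rose in both 66cl4 host comparisons, 10 of 10 in each, with list means of 5.29 to 7.09 in NSG and 6.64 to 11.14 in BALB/c tumors. Their part in the 66cl4 host calls was not tested.

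**Figure D3:**
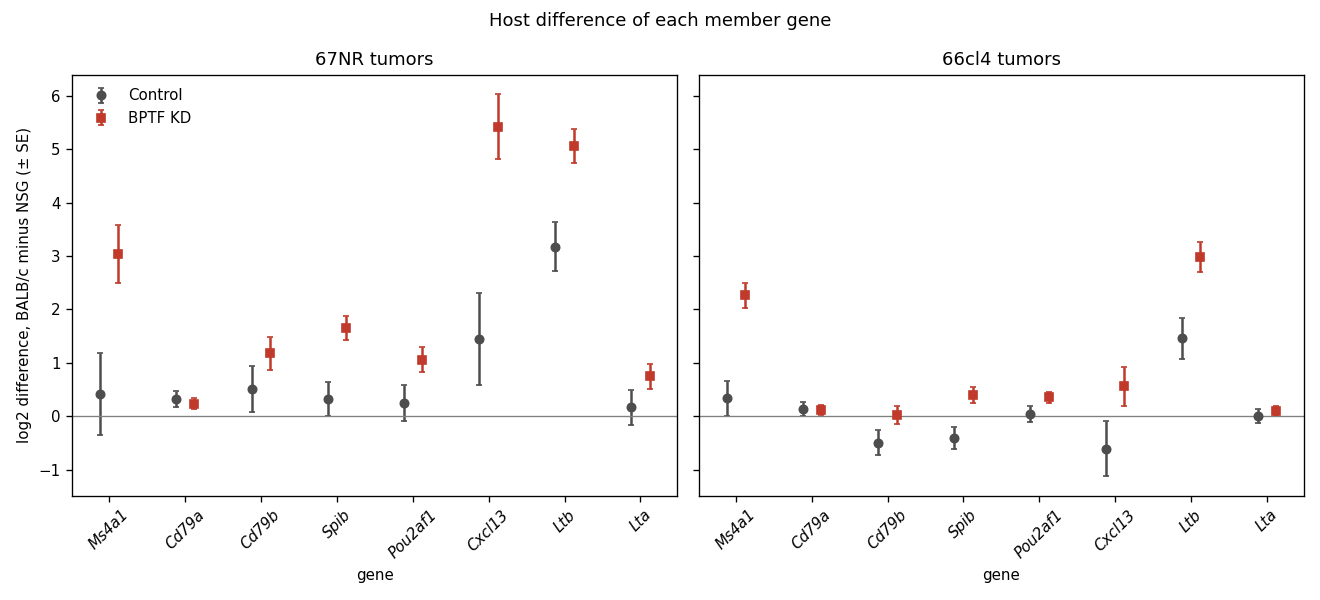
Log2 difference between BALB/c and NSG tumors (y axis, points ± SE of the limma fit) for each member (x axis) in 67NR (left) and 66cl4 tumors (right), Control in grey circles and labelled BPTF KD in red squares. *Ltb* was higher in BALB/c mice in all 4 comparisons, and *Cxcl13* was 5.42 higher in 67NR BPTF KD tumors, against 0.57 in 66cl4 BPTF KD tumors and -0.61 in 66cl4 Control tumors.

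In NSG mice 2 members, *Cxcl13* and *Ltb*, did not overlap between the lines. For *Cxcl13*, the 9 66cl4 tumors of NSG mice lay between 9.17 and 11.05, and the 9 67NR tumors between 4.10 and 5.64, and for *Ltb* between 6.19 and 7.83 and between 4.89 and 6.11. These differences were not tested, and the share of all genes without such overlap was not counted. For *Cxcl13*, 66cl4 Control tumors of BALB/c mice were at 7.96 to 10.25 and overlapped those of NSG mice. In BALB/c mice the lines differed in *Cxcl13* by -2.60 ± 0.92 in Control tumors (67NR lower, limma adjusted p = 0.0716) and by -0.68 ± 0.65 in BPTF KD tumors. 0 of 8 members passed between the lines in Control tumors, where 14.0% of all genes passed in either direction. In BPTF KD tumors, *Spib* (0.85 ± 0.23, adjusted p = 0.0160) and *Lta* (0.64 ± 0.22, adjusted p = 0.0444) were higher in 67NR, 2 of 8 members where 8.88% of all genes were higher. This count was 4 without 67NR BPTF KD replicate 2 and 1 without replicate 4. Without replicates 3 and 6 it was again 2, with *Spib* at 0.55 and *Lta* at 0.40.

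Ordered by group mean, few neighbouring groups of a member were apart. *Ms4a1* was highest in 67NR (7.04) and 66cl4 BPTF KD tumors of BALB/c mice (6.56), whose ranges overlapped, followed without overlap by 67NR Control tumors of BALB/c mice (4.58). For *Cxcl13*, 66cl4 Control tumors of BALB/c mice (9.09), 67NR Control tumors of BALB/c mice (6.49) and 67NR Control tumors of NSG mice (5.05) followed each other without overlap. For *Ltb*, the order ran from BALB/c to 66cl4 NSG tumors, with a gap between 66cl4 Control tumors of BALB/c (8.60) and NSG mice (7.14), and then to 67NR NSG tumors, with a gap between 66cl4 (6.82) and 67NR BPTF KD tumors (5.65). No neighbouring groups were apart for *Spib*, *Cd79a*, *Cd79b*, *Pou2af1* and *Lta*. The share of all genes with such gaps was not counted, so the gaps are descriptions. The gap of *Cxcl13* between 67NR Control tumors of BALB/c and NSG mice had a limma adjusted p = 0.583. Its exact permutation p was 0.1, the smallest that 20 splits of these tumors allow.

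The members did not peak in the same tumors. Among the 67NR BALB/c BPTF KD tumors, replicate 6 was highest in *Ms4a1* (9.73), *Cd79b* (8.08) and *Pou2af1* (5.37), and replicate 3 in *Spib* (7.79), *Cxcl13* (13.00) and *Lta* (7.14). Replicate 4 was highest in *Ltb* (11.60). Replicate 2 was lowest in every member except *Pou2af1*, where replicate 1 was lower. Replicate 3 also had the highest list means of T cell (9.54), NK cell (9.53) and plasmacytoid dendritic cell genes (8.32), and the part of these cells in its values was not tested.

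**Figure D4:**
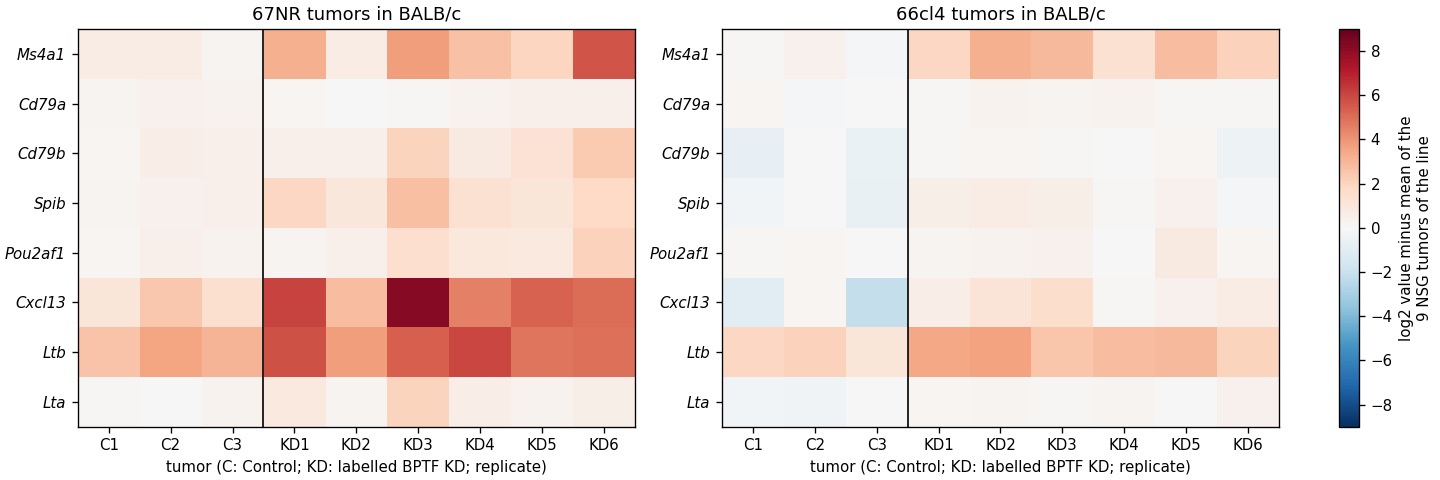
Log2 value of each member (rows) in the 9 67NR (left) and 9 66cl4 tumors (right) of BALB/c mice (columns), minus the mean of that gene in the 9 NSG tumors of the line; red is higher and blue lower than NSG. *Ltb* was above the NSG mean in every BALB/c tumor, and *Ms4a1* was highest in 67NR BPTF KD replicate 6 (9.73).

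Over the 18 BALB/c tumors the correlation of 2 members ranged from 0.35 to 0.92 in 21 pairs without *Cd79a* and from -0.08 to 0.36 in the 7 pairs with it. These tumors share groups, and with group means removed the ranges were 0.14 to 0.88 and -0.29 to 0.36. The highest was that of *Cd79b* with *Pou2af1* (0.919, and 0.881 with group means removed), and *Spib* with *Cxcl13* had 0.609 and 0.825. The genes most like *Ms4a1* among all others were *Ighm* (0.893), *Jchain* (0.874) and *Tnfrsf13c* (0.860). The genes most like *Ltb* were *Cd2* (0.939), *Psmb9* (0.935) and *Ms4a4b* (0.932), those most like *Lta* *Ly6i* (0.938), *Cish* (0.926) and *Igf2bp3* (0.924), and those most like *Cxcl13* *St3gal6* (0.916), *Apobec1* (0.884) and *Ckb* (0.880). *Spib* was most like *H2-Oa* (0.911), *Fam189b* (0.909) and *Gimap3* (0.908), and *Cd79b* and *Pou2af1*, after each other, were both most like *Cyp11a1* (0.897 and 0.908), followed by *Tpsb2* (0.871), a mast cell tryptase, for *Cd79b* and by *Rprm* (0.905) for *Pou2af1*. For *Cd79a* they were *Tmco6* (0.789), *Vti1b* (0.788) and *Hspa14* (0.757).

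Other B cell genes were followed as a list of 28, of which 22 were measured. With the BPTF KD label 0 of 22 passed in 67NR or 66cl4 tumors of BALB/c mice, with medians of 0.41 and 0.12 against -0.0033 and 0.03 for all genes. *Cxcr5*, the receptor of *Cxcl13*, was at 0.67 ± 0.21 in 67NR and 0.20 ± 0.14 in 66cl4. *H2-Oa*, an antigen presentation gene of B cells, was at 1.70 ± 0.48 and 0.70 ± 0.21, and *Blnk*, an adaptor of the B cell receptor, at -0.05 ± 0.45 and -0.68 ± 0.19. *Cr2* and *Fcer2a*, receptors of mature B cells and of follicular dendritic cells, were between 0.00 and 0.05 in both lines. Without 67NR replicates 3 and 6 the 67NR median was 0.31, with *Cxcr5* at 0.49 and *H2-Oa* at 1.41. In 67NR tumors labelled BPTF KD, 12 of 22 rose (11.3% of all genes did) and 1 fell in BALB/c against NSG mice, *Cxcr5* by 0.85 ± 0.13 among those that rose. *Ebf1*, which is a B cell factor but is also made by fibroblasts and fat cells, fell by 1.99 there and rose by 1.26 ± 0.14 with the BPTF KD label in NSG mice (limma adjusted p = 0.00505).

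Of 17 plasma cell and immunoglobulin genes 12 were measured, and 0 of 12 passed with the BPTF KD label in BALB/c mice, with medians of 0.66 in 67NR and 0.08 in 66cl4. *Jchain*, the joining chain of secreted antibody, was at 2.37 ± 1.19 in 67NR and 2.68 ± 0.56 in 66cl4 (limma adjusted p = 0.659 and 0.0648). *Ighm*, the heavy chain of IgM, was at 1.21 ± 0.51 and 1.24 ± 0.29 (adjusted p = 0.637 and 0.0674). Without 67NR replicates 3 and 6, *Jchain* was at 1.29 ± 0.77 and *Ighm* at 0.69 ± 0.29 in 67NR, and the median at 0.45. In NSG mice *Jchain* stayed between 3.45 and 3.94, whereas *Ighm* read 7.33 to 10.41 in these hosts.

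Lymphotoxin and follicle signalling genes were a list of 25, with 21 measured and 0 of 21 past the threshold with the BPTF KD label in BALB/c mice (medians of 0.35 in 67NR and -0.03 in 66cl4). *Ltbr*, the receptor of the lymphotoxin complex, was at -0.09 ± 0.24 and -0.07 ± 0.15, and *Tnf*, which lies between *Ltb* and *Lta*, at 0.57 ± 0.27 and 0.47 ± 0.20. *Tnfsf13b*, the B cell survival factor BAFF, was at 1.29 ± 0.48 and 0.55 ± 0.15, and the adhesion molecule *Vcam1* at 1.06 ± 0.32 and 0.86 ± 0.24. The list as a whole did not rise in 66cl4, where 10 of 21 genes lay above 0. At an unadjusted p under 0.05, 4 were higher and 4 lower there, and 7 higher and 0 lower in 67NR. Without 67NR replicates 3 and 6 the 67NR median was 0.32, with *Tnfsf13b* at 1.24 and *Vcam1* at 0.93. In BALB/c against NSG mice 12 of 21 rose in 67NR and 6 of 21 in 66cl4 tumors labelled BPTF KD, where 11.3% and 6.34% of all genes did. *Relb* and *Birc3* rose in both (1.11 ± 0.16 and 1.80 ± 0.27 in 67NR, 0.30 ± 0.08 and 0.68 ± 0.12 in 66cl4), and *Ltbr* was at -0.05 ± 0.17 and 0.19 ± 0.11.

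Markers of a lymph node left in the sample were low, and none passed with the BPTF KD label. The mean of 7 measured genes of lymph node stroma and high endothelial venules (of 12 listed) lay between 5.37 and 5.78 in all 36 tumors, NSG mice included, and 0 of 7 passed with the BPTF KD label in any of the 4 comparisons. *Glycam1* averaged 4.53 in both 67NR Control groups and 4.75 in 67NR BALB/c BPTF KD tumors, and *Madcam1* 4.60 and 4.51 in the BALB/c groups. List means of other lymphocytes were also higher in BPTF KD tumors of BALB/c mice, and matched the members in their order of tumors only in part. The mean of 15 T cell genes was 6.18 to 6.90 in 67NR Control and 6.86 to 9.54 in BPTF KD tumors of BALB/c mice, and that of 11 NK cell genes 7.13 to 7.15 and 7.58 to 9.53. In 66cl4 the T cell mean was 6.12 to 6.36 and 6.42 to 7.15, and the NK cell mean 6.33 to 6.82 and 6.72 to 7.69. In 67NR, BPTF KD replicate 3 had the highest means of the members (8.13), T cell (9.54) and NK cell genes (9.53). Replicate 2 had the lowest of each (6.10, 6.86 and 7.58). Replicate 6 had the second highest mean of the members (7.78) but the second lowest T cell (7.36) and NK cell means (7.73). In 66cl4, replicate 4 had the highest T cell and NK cell means and the second lowest mean of the members (6.54). Replicate 6 had the lowest mean of the members (6.515) and of T cell genes (6.42). Of these lists 0 of 15 and 0 of 11 genes passed in 67NR, and 0 of 15 and 1 of 11 in 66cl4. The mean of 10 plasmacytoid dendritic cell markers, which share *Spib* with B cells, was 7.11 to 7.29 and 7.34 to 8.32 in 67NR, and 7.35 to 7.66 and 7.50 to 7.98 in 66cl4. *Ltb* and *Lta* are made by T and NK cells as well, and *Cxcl13* by myeloid cells, and the part of these cells in the values was not tested. Macrophage and dendritic cell markers averaged 8.71 to 8.76 in Control and 8.58 to 9.96 in BPTF KD tumors of 67NR, and 9.18 to 9.47 and 9.08 to 9.42 in 66cl4.

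**Figure D5:**
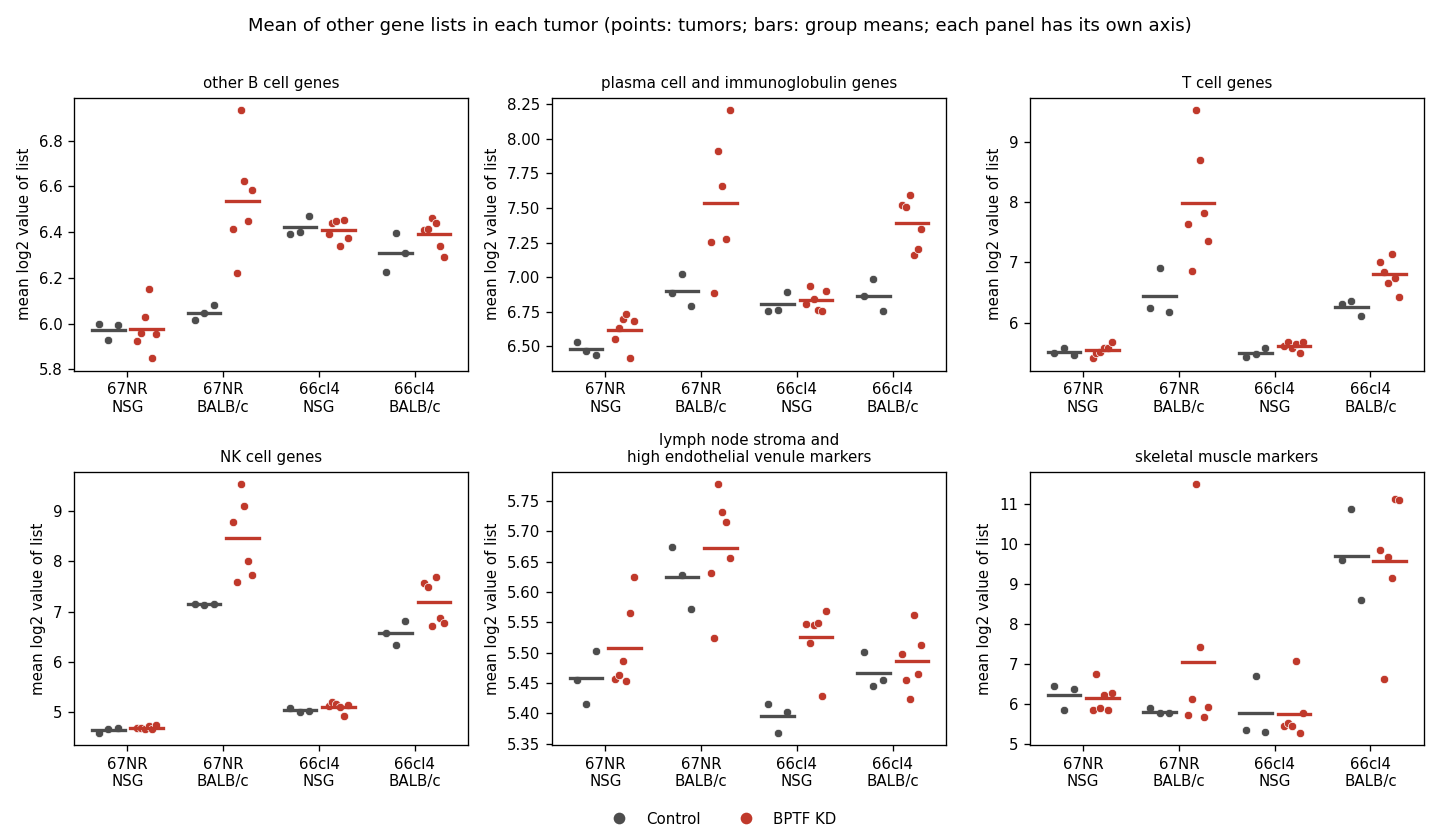
Mean log2 value of 6 other gene lists in each of 36 tumors, one panel per list with its own axis, by cell line and host; points are tumors, bars group means, grey is Control and red is labelled BPTF KD. T and NK cell genes are high in 67NR BPTF KD tumors of BALB/c mice, lymph node markers stay between 5.37 and 5.78, and skeletal muscle markers reach 11.50 in 1 of the 67NR BPTF KD tumors.

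Skeletal muscle markers overlapped between the groups of 66cl4 tumors in BALB/c mice (8.62 to 10.90 in Control and 6.64 to 11.14 in BPTF KD tumors). In that comparison the 3′ to 5′ difference of actin and *Gapdh*, which rises as RNA degrades, averaged 0.670 in Control and 0.792 in BPTF KD tumors. With it as a covariate *Ms4a1* was at 2.41 with an adjusted p = 0.217. In 67NR tumors of BALB/c mice this measure of RNA integrity ran from 0.770 to 0.865 in Control and from 0.545 to 1.315 in BPTF KD tumors. In 67NR Control tumors of NSG mice it ran from 0.46 to 0.54. The 67NR Control tumors compared between hosts, where *Ltb* was called, therefore did not overlap in this measure.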

How the data were processed

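One Affymetrix mouse array was run on RNA of each of 36 tumors. The authors removed necrotic tissue, labelled 500 ng of total RNA and deposited RMA values on the log2 scale. The RMA version is not given in the sources used here. They compared groups with a t-test.

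Of the probe sets, 20393 had 1 symbol, 691 several and 1606 none, and current symbols came from RefSeq by Entrez ID (20364 found). The brightest probe set stood for each of 12394 genes, with no filter and no further normalization. The main test was that of limma (version 3.58.1, R 4.3.3). P values were adjusted by Benjamini-Hochberg across the 12394 genes, and a gene passed when its adjusted p was under 0.05. BPTF KD comparisons were fitted on 9 tumors, host and line contrasts and differences of effects on 18. Exact permutation tests were two-sided. Figures were drawn with matplotlib 3.10.9, and tables were handled with pandas 2.3.3, scipy 1.17.1 and numpy 2.4.6 under Python 3.11.15. On simulated data with 12394 genes, a log2 change of 1 was recovered for 54% of changed genes in the 67NR BALB/c comparison. It was recovered for 86% in the 66cl4 BALB/c comparison, and a change of 2 for 87% and 98%. These shares hold for simulated data only. In the real 67NR comparison 0 genes passed, although *Cxcl13* differed by 3.66, *Ms4a1* by 2.46 and *Ltb* by 2.05. The shares therefore do not give the chance that a member would pass.

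The members and gene lists were chosen with earlier results of these data known. All members were named, with the 3 most similar genes by Pearson correlation over 18 BALB/c tumors and up to 4 genes of each list. Further genes of known role were named after their values were seen (*Cr2*, *Fcer2a*, *Ltbr*, *Tnf*, *Relb*). Alternatives were the methods' t-test, a fit of all 36 tumors, leaving out the dimmest 25% of genes, array medians subtracted, another quantile normalization, other choices of probe set, an RNA integrity covariate, a replicate block, leaving out each tumor and, added after seeing the data, leaving out 2 tumors.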

Additional observations from a re-analysis of the deposited data

Results flagged for a closer look

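Each of 8 members was looked at in the 4 groups of 6 tumors, and in 3 of these 32 sets of values, which share tumors and are not independent, 1 tumor lay far from the others. Chance alone sets 1 tumor apart in about 1 of 20 independent sets. *Lta* was at 7.14 in 67NR BALB/c BPTF KD replicate 3, with the next tumor at 6.05. *Cd79b* was at 5.88 in 66cl4 BALB/c BPTF KD replicate 6, with the next at 6.38. *Cd79a* was at 6.32 in 66cl4 NSG BPTF KD replicate 2, with the next at 5.83.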

How the results depend on the processing

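The counts of members that passed changed with the processing as follows, and the cause was not tested unless named. In 67NR tumors of BALB/c mice, 0 members passed with the BPTF KD label and 4 in a fit of all 36 tumors, where 3.23% of all genes were higher. That fit shares a spread that was unequal between the groups, so its p values may be too small here. In 66cl4 tumors of BALB/c mice, 1 passed (*Ms4a1*), and 0 passed in a fit of all 36 tumors, by the methods' t-test, after another quantile normalization, on the second brightest probe set, on the mean over probe sets and with the RNA integrity covariate. Without the dimmest 25% of genes the count was also 0, since that filter removed *Ms4a1* itself. Leaving out 1 tumor gave 0 to 2. The number of all genes past the threshold in that comparison was 14 higher and 9 lower. It was 25 and 20 without the dimmest genes, 5 and 1 after quantile normalization, 28 and 36 over all probe sets, 3 and 1 on second probe sets, and 0 with the covariate, by the t-test and in the fit of all tumors.

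Between hosts, the member count in 67NR Control tumors went from 1 to 0 by the t-test, and in 66cl4 Control tumors from 1 to 0 by the t-test and in a fit of all tumors, with 0 to 1 when 1 tumor was left out. In 67NR BPTF KD tumors *Cd79b* and *Lta* were lost by the t-test, *Lta* with the covariate and *Ms4a1* on the second probe set, and 6 to 8 members passed with 1 tumor left out. Without the dimmest genes the count went from 7 to 4 in 67NR and from 3 to 1 in 66cl4 BPTF KD tumors. That filter removed *Ms4a1*, *Pou2af1* and *Lta* themselves, all called in 67NR, and of these *Ms4a1* and *Pou2af1* were called in 66cl4. For the difference of the BPTF KD effect between hosts in 66cl4, leaving out 1 tumor gave 0 to 1 (*Ms4a1*, without BALB/c BPTF KD replicate 4). Between lines, the fit of all tumors called 1 member in Control tumors (*Cxcl13*) instead of 0. In BPTF KD tumors the count of 2 became 0 by the t-test and 4 in the fit of all tumors. It was 1 to 4 with 1 tumor left out. Without the dimmest genes it was 1, since *Lta* was among the genes removed.

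Of the 104 differences of single members over the 13 comparisons, 21 changed sign in at least 1 setting, none of them with an adjusted p under 0.538. Among those given in the text, in NSG mice, *Ltb* in 67NR was at -0.047 with the covariate and at -0.043 to 0.48 with 1 tumor left out, *Ltb* in 66cl4 at -0.52 to 0.025, and *Ms4a1* in 66cl4 at -0.013 on the second probe set. The difference of the *Ms4a1* effect between lines was -0.61 without 67NR BALB/c BPTF KD replicates 3 and 6, and -0.29 to 0.71 with 1 tumor left out.

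Deviations of same-numbered Control and BPTF KD tumors had correlations of -0.45 to 0.27 in 12 pairs, 3 of them over 0.1. In 2 pairs the best match was that with the same number. With 3 Control tumors a group, this cannot decide whether the number pairs tumors, and the labels do not say. With the replicate number as a block, 1 member passed in 66cl4 tumors of BALB/c mice, *Ltb* (1.53, adjusted p = 0.0491) in place of *Ms4a1* (2.50, adjusted p = 0.0855), and 7 genes were higher and 0 lower instead of 14 and 9, while 0 members passed in 67NR.

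With 3 Control arrays a group, 1 array can decide a call, and members near the background of their probe sets (*Ms4a1* and *Pou2af1* in Control and NSG tumors) allow no firm fold.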
